A study of Rattus norvegicus with 4 samples.

Results

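The 8 mast cell genes described here, Kit, Hdc, Cma1, Tpsb2, Tpsab1, Cpa3, Ms4a2 and Fcer1a, were named as a list and found by symbol among the 32883 genes of the rat carotid body (CB) count table. All 8 were present, each with 1 entry. The CB, which lies where the carotid artery divides, senses oxygen in arterial blood. Its total RNA was sequenced after poly A+ selection in 2 libraries from neonates (day 5) and 2 from adults (day 21), all of untreated Sprague Dawley rats, and the question was what changes in the CB as its response to low oxygen matures. Each library pooled the CBs of 6 pups or 3 older rats by the labels. The methods of the paper describe larger pools and more replicates per age. The pools held both sexes, and the pups were killed with urethane. Rats of day 21 are called adult here, although they were of weaning age. Totals ran from 36286191 to 39476110 estimated counts per library. At this depth 3 counts, the floor of detection used here, correspond to between 0.0760 and 0.0827 counts per 1000000 (CPM), which covers counting error only. The tissue label was checked with 10 genes of glomus cells, which sense oxygen in the CB. All 10 passed the filter on low counts, and their summed level was 6246 and 5076 CPM in neonates and 6633 and 5556 CPM in adults.

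Mast cells are resident immune cells of connective tissue that lie along vessels and nerves. They mature in the tissue from blood-borne precursors under stem cell factor, the ligand of the receptor tyrosine kinase Kit, and they store histamine and serine proteases in granules bound to heparin. Cross-linking of IgE on the high-affinity receptor, whose alpha chain is Fcer1a and whose beta chain is Ms4a2, releases the granules. In rat, the granule proteases include the chymases of the Cma1 and Mcpt locus, the tryptases Tpsb2 and Tpsab1, and carboxypeptidase A3 (Cpa3), while Hdc makes histamine from histidine.

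The granule protease genes were higher in neonates than in adults, while the genes of the receptors Kit and Ms4a2 did not pass the test between ages. Cma1 and Cpa3 were both more than 4-fold higher in CPM, and the tryptases and Hdc were higher by smaller amounts. Of the 7 genes that passed the filter (1 CPM or more in 2 or more libraries), 5 were called higher in neonates and 0 lower by edgeR's quasi-likelihood test. A call needed a Benjamini-Hochberg adjusted p below 0.05 together with a change of 2-fold or more. No gene tested of the list was lower at an unadjusted p below 0.05, and DESeq2 and limma-voom also called 0 lower. By the same rule, 7.68% of the 13843 genes tested were called higher in neonates and 13.2% lower. These are 1063 and 1822 genes, and scaling to library size alone turned them into 704 and 2549. The 7 genes reached 1 CPM in all 4 libraries, so none passed through one age alone. Their median log2 fold change was 1.25, against -0.0029 over all genes tested. Fcer1a did not pass the filter and is described by its counts.

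The proximal promoters of several members are shown because the protease genes were called higher in neonates and Kit was not. The sequences are RefSeq's for the build GRCr8 and cover the 150 bases before the annotated start, read toward the gene. The table matched 7 of the 8 genes, and Ms4a2 had no entry. Capitals mark GATAA or its reverse complement TTATC, the core that GATA factors such as Gata2 bind.
Cma1 (chr15:33390134-33390283, minus strand): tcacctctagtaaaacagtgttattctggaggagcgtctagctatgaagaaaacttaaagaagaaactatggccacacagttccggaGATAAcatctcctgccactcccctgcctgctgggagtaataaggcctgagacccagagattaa
Cpa3 (chr2:104673238-104673387, minus strand): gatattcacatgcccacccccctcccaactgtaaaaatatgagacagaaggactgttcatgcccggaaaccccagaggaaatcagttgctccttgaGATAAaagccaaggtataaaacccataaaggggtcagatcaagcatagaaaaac
Tpsab1 (chr10:14867303-14867452, minus strand): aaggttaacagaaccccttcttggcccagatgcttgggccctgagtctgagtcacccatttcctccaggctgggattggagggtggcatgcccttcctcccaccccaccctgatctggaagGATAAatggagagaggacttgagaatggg
Tpsb2 (chr10:14886160-14886309, plus strand): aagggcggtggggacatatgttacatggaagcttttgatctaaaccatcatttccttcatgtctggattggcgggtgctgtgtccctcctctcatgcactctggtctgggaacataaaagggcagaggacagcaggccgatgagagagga
Kit (chr14:32978813-32978962, minus strand): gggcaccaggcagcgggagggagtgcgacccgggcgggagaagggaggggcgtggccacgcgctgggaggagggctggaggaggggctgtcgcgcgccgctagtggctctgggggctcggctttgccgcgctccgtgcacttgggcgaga

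GATAA was found on either strand in 4 of the 7 promoters (Cma1, Cpa3, Tpsab1 and Fcer1a), against 14.2% of 33469 promoter windows of the same length. In Cpa3 it lay 54 to 50 bases before the start, in Cma1 63 to 59 bases, in Tpsab1 29 to 25 bases and in Fcer1a 93 to 89 bases. Tpsb2, Hdc and Kit had no such match in this window. The E-box CANNTG, the kind of site that Mitf binds, was in 5 of the 7 windows and in 46.6% of all windows, and none of its matches overlapped a GATAA match. TTCNNNGAA, the core bound by Stat5 factors, was in 0 of the 7 and in 4.41% of all windows. These matches describe letters only.

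Cma1 (ENSRNOG00000020563), of the chymase family, had 31.8 and 32.9 CPM in the neonatal libraries and 7.86 and 6.94 CPM in the adult libraries. The ages lay far apart, and the libraries within an age differed little. The mean fell from 32.4 ± 0.751 CPM in neonates to 7.40 ± 0.648 CPM in adults (SD, n = 2 each), a ratio of 4.37. After TMM normalization the log2 fold change, neonate over adult, was 2.37 (SE 0.12, edgeR adjusted p = 2.4e-06).

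Cpa3 (ENSRNOG00000011181), which trims the carboxyl end of peptides in the granule, had 16.7 and 23.4 CPM in neonates and 5.61 and 3.75 CPM in adults. Both neonatal libraries lay above both adult libraries, with a wider spread within each age than for Cma1. Its log2 fold change was 2.34 (SE 0.23, edgeR adjusted p = 4.6e-05), close to that of Cma1.

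The tryptases form tetramers held together by heparin. Tpsb2 (ENSRNOG00000018611) had 9.60 and 7.25 CPM in neonates and 4.79 and 3.61 CPM in adults, with a log2 fold change of 1.25 (SE 0.26, edgeR adjusted p = 0.0027). Tpsab1 (ENSRNOG00000024181) had 10.99 and 11.84 CPM in neonates and 7.31 and 3.86 CPM in adults, with a log2 fold change of 1.27 (SE 0.28, edgeR adjusted p = 0.0040). The ages did not overlap for either tryptase. For Tpsab1 the adult libraries differed from each other almost as much as the higher of them differed from the neonates. Without adult replicate 2 its log2 fold change was 0.85, below the 2-fold limit, at an edgeR adjusted p of 0.0185, and without adult replicate 1 it was 1.79. The tryptases are close relatives, and reads could be divided between them wrongly. All of their estimated counts were whole numbers.

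Hdc (ENSRNOG00000010262), histidine decarboxylase, was low, with 2.66 and 3.04 CPM in neonates and 1.61 and 1.74 CPM in adults. These are 105 and 117 counts against 61 and 63. The log2 fold change was 1.01 (SE 0.31, 95% interval 0.30 to 1.72, edgeR adjusted p = 0.020), which places Hdc at the 2-fold limit. Without adult replicate 1 its edgeR adjusted p was 0.116 and without adult replicate 2 it was 0.090.

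**Figure D1:**
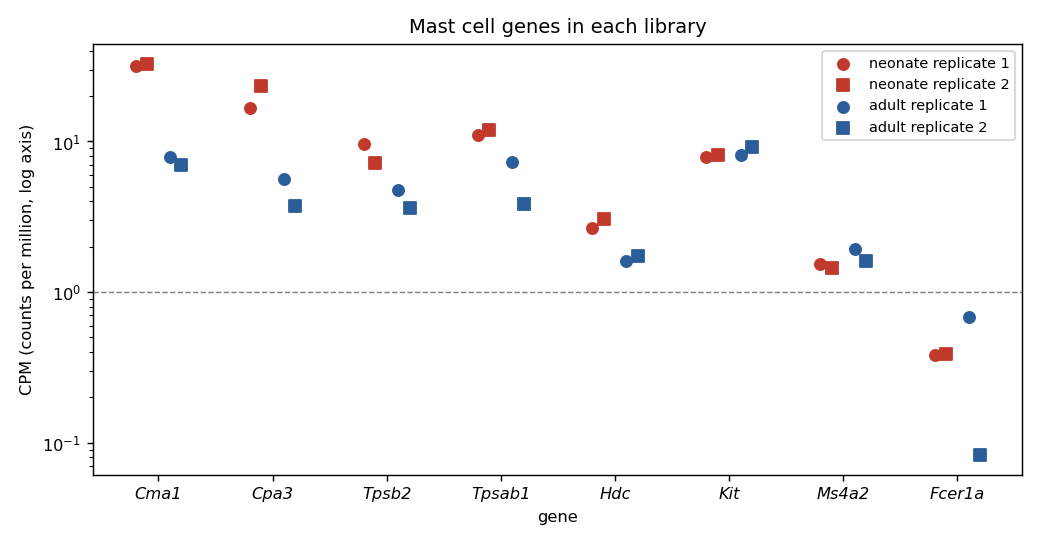
CPM of each mast cell gene (log axis) in the 4 libraries, with red for neonates, blue for adults, circles for replicate 1 and squares for replicate 2. The dashed line is 1 CPM, and the neonatal points lie above the adult points for the first 5 genes, Cma1 to Hdc, but not for Kit, Ms4a2 and Fcer1a.

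Both neonatal libraries were above both adult libraries in CPM for these 5 genes, and the same held for 27.9% of all genes tested. As the tissue was sequenced in bulk, fewer mast cells and less of a transcript per mast cell cannot be told apart.

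Kit (ENSRNOG00000002227), the receptor for stem cell factor, had 7.85 and 8.08 CPM in neonates and 8.15 and 9.26 CPM in adults. Its 310 and 311 counts in neonates and 308 and 336 in adults were nearly level. The log2 fold change after TMM was 0.12 (SE 0.19, 95% interval -0.31 to 0.54, edgeR adjusted p = 0.60). Scaled to library size alone, it was -0.13, so no direction can be given. Kit is not confined to mast cells, since melanocytes and other cells carry it. Of the melanocyte markers, Tyr, Tyrp1 and Mlana ranged from 0 to 0.182 CPM over the libraries, while Pmel, found in other cells too, had 5.27 and 5.19 CPM in neonates and 7.54 and 8.24 CPM in adults.

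Ms4a2 (ENSRNOG00000020993), the beta chain that amplifies the signal of the IgE receptor, had 1.55 and 1.45 CPM in neonates and 1.93 and 1.60 CPM in adults, or 61, 56, 73 and 58 counts. The log2 fold change was 0.0099 (SE 0.35, edgeR adjusted p = 0.98). The 95% interval ran from -0.77 to 0.79 on the log2 scale. The intervals of Cma1 (2.10 to 2.65) and Cpa3 (1.81 to 2.86) lay wholly above it. Those of Tpsb2 (0.66 to 1.84), Tpsab1 (0.63 to 1.92) and Hdc (0.30 to 1.72) overlapped it. Intervals set side by side do not test a difference between genes. The sign of the Ms4a2 estimate turned under several alternatives.

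Fcer1a (ENSRNOG00000009177), the chain that binds IgE, had 15 counts in each neonatal library, 26 in adult replicate 1 and 3 in adult replicate 2. These are 0.380 and 0.390 CPM in neonates and 0.688 and 0.0827 CPM in adults. The neonates lay between the adult libraries, whose exact Poisson 95% intervals of 17.0 to 38.1 counts and 0.619 to 8.77 counts do not meet. Without a filter on low counts the log2 fold change was 0.20 (edgeR adjusted p = 0.88).

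**Figure D2:**
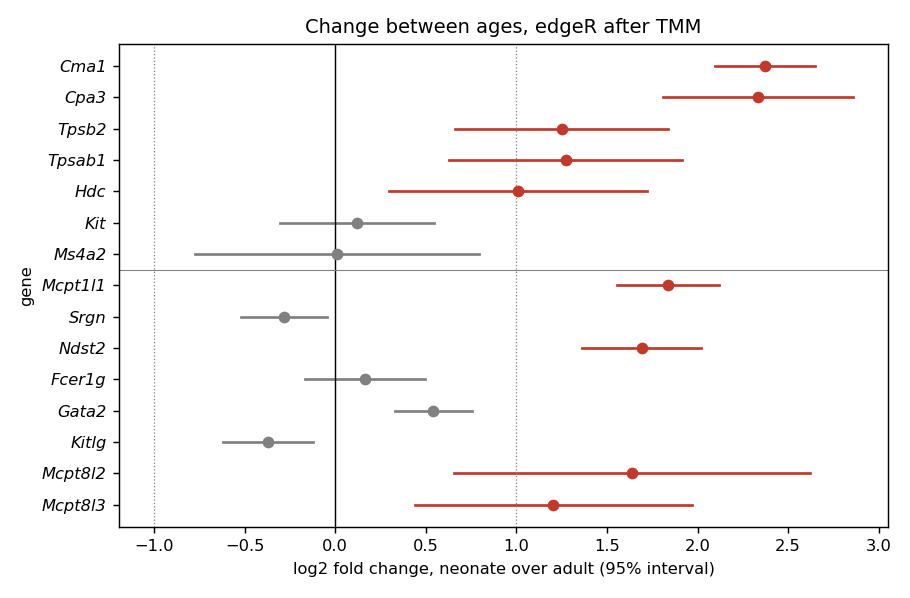
Log2 fold change, neonate over adult, with its 95% interval from edgeR's quasi-likelihood test after TMM, for the 7 mast cell genes tested (above the line) and 8 other genes named in the text (below it). Red marks genes called higher in neonates, grey marks genes not called, and dotted lines mark 2-fold, with Cma1 and Cpa3 farthest to the right and Kit, Ms4a2 and Fcer1g across 0. The 8 other genes were picked by hand, and none of the 9 genes of the lists by role called lower in neonates is drawn.

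Ratios of members within a library do not depend on how libraries are scaled. In all, 10 ratios were computed, after the values above had been seen. Cma1 had 20.6 and 22.6 counts for each Ms4a2 count in neonates and 4.07 and 4.34 in adults. Summed over Cma1, Cpa3, Tpsb2 and Tpsab1, the proteases had 44.7 and 51.8 counts per Ms4a2 count in neonates and 13.2 and 11.4 in adults, a ratio 3.93-fold higher in neonates. Per Kit count the sum was 8.80 and 9.33 in neonates and 3.14 and 1.96 in adults. The neonatal libraries thus held more protease transcript relative to either receptor, with no overlap between ages. As the proteases had been called higher and the receptors had not, this separation was largely set by the choice of genes. It adds no separate support.

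Among the proteases, the change was uneven. Cma1 had 3.32 and 4.54 counts per Tpsb2 count in neonates and 1.64 and 1.92 in adults, so Cma1 lost more than Tpsb2. It also lost more than Mcpt1l1, the chymase-like gene described below. Mcpt1l1 had 2.03 and 2.06 counts per Cma1 count in neonates and 3.12 and 2.79 in adults. Cpa3 per Cma1, at 0.523 and 0.711 in neonates and 0.714 and 0.540 in adults, overlapped between ages, as did Tpsb2 per Tpsab1, at 0.873 and 0.612 against 0.656 and 0.936. Hdc per Ms4a2 was 1.72 and 2.09 in neonates and 0.836 and 1.09 in adults. The two-sided exact permutation p is 0.333 for each ratio that does not overlap, the smallest that 2 libraries against 2 can give, and 0.417 after Benjamini-Hochberg adjustment over the 10 ratios.

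**Figure D3:**
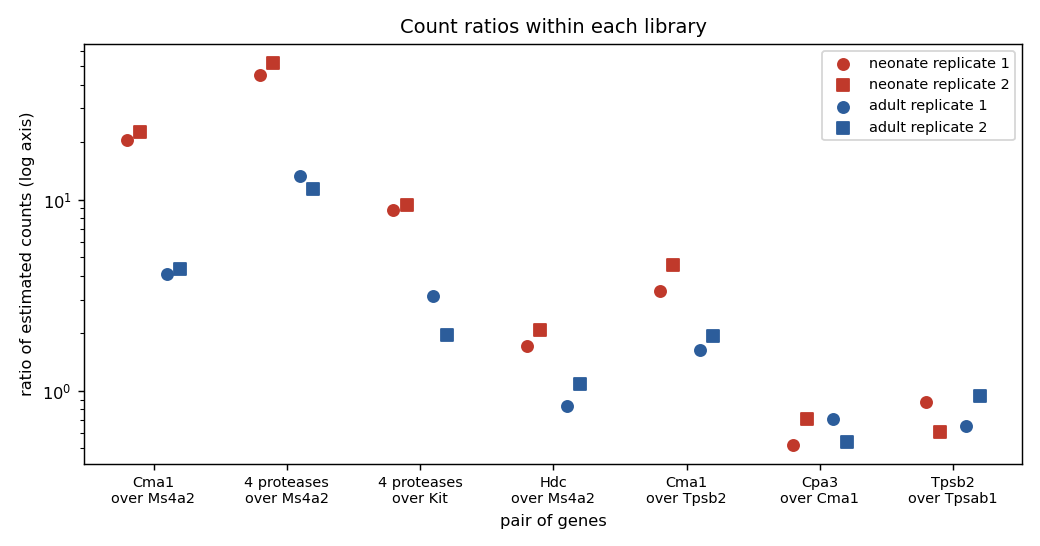
Ratio of estimated counts (log axis) for 7 pairs of mast cell genes in the 4 libraries, with red for neonates, blue for adults, circles for replicate 1 and squares for replicate 2. The 4 proteases are Cma1, Cpa3, Tpsb2 and Tpsab1, and the ages separate in the first 5 pairs and mix in Cpa3 over Cma1 and Tpsb2 over Tpsab1.

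Other genes of mast cell function were taken from 8 lists by role, 84 genes in all, of which 77 were in the table and 51 were tested. Of these, 5 were called higher and 9 lower in neonates, or 9.8% and 17.6%, beside 7.68% and 13.2% of all genes tested. The lists as a whole were thus not far from the background, and the counts for each list below are descriptions to be read against those shares. Of the 9, Hrh1 and Slc22a3 passed the filter only because they were high in adults. Most of them are used by many cell types, so their levels in whole CB are not levels in mast cells.

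Of 13 further genes of granule proteases, 8 were in the table and 2 were tested. Mcpt1l1, a chymase-like gene of the Mcpt family, had 64.6 and 67.8 CPM in neonates and 24.6 and 19.3 CPM in adults, with a log2 fold change of 1.84 (SE 0.12, edgeR adjusted p = 7.7e-06). Its counts were whole numbers, but the Mcpt genes are near copies of each other and their levels are uncertain. Mcpt1, the connective tissue chymase, had 44 and 26 counts in neonates and 6 and 3 in adults and fell below the filter. Without the filter its log2 fold change was 3.07 (edgeR adjusted p = 0.0097). Mcpt4 had at most 4 counts in a library, and Gzmb had 0 counts in all 4. Dpp4, a peptidase of many cell types, was called lower in neonates, at 3.24 and 6.21 against 9.42 and 13.9 CPM (log2 fold change -1.06). This call was lost without neonate replicate 1 (-0.68) and without adult replicate 2 (-0.79).

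Of the 10 genes of granule storage and secretion tested, 1 was called higher and 0 lower. This was Ndst2, a sulfotransferase needed for the heparin of mast cell granules, with 59.6 and 52.8 CPM in neonates and 23.5 and 17.8 CPM in adults (log2 fold change 1.69, edgeR adjusted p = 2.3e-05). Ndst2 had fractional counts, so some of its reads were shared with other sequences. Srgn, the proteoglycan core on which heparin is built, went the other way, at 59.8 and 51.3 against 81.3 and 79.0 CPM, and its log2 fold change of -0.28 was below 2-fold. Cd63, a granule membrane protein, was at 0.42, Stx4, a membrane fusion protein, at 0.79 and Rab27a, which guides granules to the membrane, at -0.58, all below 2-fold.

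Of the 13 genes of IgE receptor signalling tested, 1 was called higher and 1 lower. Lat, the adaptor of mast cells and T cells, had 5.22 and 6.99 CPM in neonates and 2.59 and 2.15 CPM in adults (log2 fold change 1.60, edgeR adjusted p = 0.00092). Gab2, an adaptor of many receptors, was lower in neonates, at 8.92 and 8.23 against 26.9 and 28.4 CPM (log2 fold change -1.44). Plcg1 (0.67), Fyn (0.40) and Lyn (-0.26), kinases and a phospholipase that act below the receptor, had log2 fold changes below 2-fold. Fcer1g, the gamma chain that the IgE receptor shares with macrophage receptors, was singled out after its values were seen. It had 11.6 and 12.1 CPM in neonates and 12.8 and 12.2 CPM in adults (log2 fold change 0.17, edgeR adjusted p = 0.35).

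Of the 6 genes of lipid mediators tested, 2 were called lower in neonates and 0 higher. Ptgs2, the inducible cyclooxygenase, had 53 and 77 counts in neonates and 303 and 390 in adults (log2 fold change -2.24), and Alox5, which starts leukotriene synthesis, had 0.760 and 1.71 against 3.52 and 3.20 CPM (log2 fold change -1.20). Their edgeR adjusted p were 0.00018 and 0.028. Leaving out any library except neonate replicate 2 raised that of Alox5 above 0.05, to between 0.059 and 0.0935. Ptgs1 was at -0.099, Pla2g4a at -0.16 and Alox5ap at -0.056, none of them called.

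Of the 6 transcription factors tested, 1 was called, lower in neonates. This was Stat5b, which acts below Kit and cytokine receptors, with 8.81 and 9.53 CPM in neonates and 30.2 and 38.5 CPM in adults (log2 fold change -1.66, edgeR adjusted p = 2.0e-05). Its counts were fractional, as were those of its close relative Stat5a. Gata2, a factor that mast cells need, had 40.3 and 45.7 CPM in neonates and 34.4 and 35.5 CPM in adults, with a log2 fold change of 0.54 and below 2-fold. Lmo2 was at 0.57 and Tal1 at 0.053. These factors are made in endothelial cells too.

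Of the 4 growth factors and ligands tested, 0 were called by edgeR or DESeq2 with the 2-fold limit, while 3 of the 4 had an adjusted p below 0.05 and less expression in neonates. Kitlg, the stem cell factor that binds Kit, had 77.0 and 88.9 CPM in neonates and 113 and 141 CPM in adults (log2 fold change -0.37, edgeR adjusted p = 0.016). The ligand was thus lower in neonates by less than 2-fold. Il33, an alarm signal for mast cells, was at -0.057 and Cxcl12 at -0.65. Il3, Il4 and Il9 had 0 counts in all 4 libraries.

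Of the 7 surface receptors tested, 2 were called higher and 2 lower. Il3ra, the alpha chain of the Il3 receptor, had a log2 fold change of 1.25. Il1rl1, the Il33 receptor, was lower in neonates, at 0.735 and 1.32 against 4.61 and 3.31 CPM (log2 fold change -1.70), and so was Csf2rb (-1.38), the chain shared by the Il3 and Il5 receptors. Il4r was at -0.61 and C5ar1 at -0.46, neither called.

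The genes for histamine uptake and detection had few counts in neonates. Hrh1, the H1 histamine receptor of vessels and nerves, had 6 and 0 counts in neonates and 53 and 89 in adults, which is 0.152 and 0 CPM against 1.40 and 2.45 CPM. Slc22a3, a transporter that takes up histamine and other amines, had 13 and 8 counts in neonates and 112 and 178 in adults, which is 0.329 and 0.208 CPM against 2.96 and 4.91 CPM. Both passed the filter through the adult libraries alone and so had to differ, and their calls support nothing. When either adult library was left out, neither gene was tested. Aldh7a1, an aldehyde dehydrogenase and the third gene of this list that was tested, was at 0.39.

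Hrh2, the H2 receptor, and Hrh3 did not pass the filter and were named after their values were seen. Hrh2 had 0 counts in both neonatal libraries and 21 and 28 in adults. The adult mean was 8.63-fold the floor of 3 counts per neonatal library, with no error of the adult counts allowed for. Hrh3, the H3 receptor of nerve endings, had 9 and 13 counts in neonates and 30 and 26 in adults. Hnmt, which inactivates histamine, had at most 2 counts in a library.

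Markers of other cells that share genes with mast cells, or that a CB dissection could hold, moved in both directions. Of the 43 tested, 12 were called higher in neonates and 12 lower, or 27.9% each, beside 7.68% and 13.2% of all genes tested. The counts for each list below are descriptions to be read against those shares. Basophils share Cpa3, Hdc, Ms4a2 and Fcer1a with mast cells. Of the 4 basophil genes listed, 3 were in the table. Mcpt8l3, a relative of the basophil protease Mcpt8, had 4.02 and 3.44 CPM in neonates and 2.38 and 1.47 CPM in adults, and Mcpt8l2 had 2.46 and 2.01 against 1.14 and 0.546 CPM. Both were called higher in neonates (log2 fold changes 1.20 and 1.64, edgeR adjusted p = 0.012 and 0.0094), and both had fractional counts. Without adult replicate 2 neither was called, with log2 fold changes of 0.86 and 1.18. Prss34, the other basophil protease, had 0 counts in all 4 libraries. The summed basophil level was 6.48 and 5.45 CPM in neonates and 3.52 and 2.01 CPM in adults. Its part in the levels of the shared genes was not tested.

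Red blood cell markers were higher in neonates, as the proteases were. Of the 4 erythroid genes tested, 4 were called higher in neonates, with a summed level of 11615 and 6846 CPM in neonates and 3031 and 2682 CPM in adults, or 3.23-fold in the means. The 4 mast cell proteases together had 69.1 and 75.4 CPM in neonates and 25.6 and 18.2 CPM in adults, or 3.30-fold. Between the neonatal libraries, the erythroid sum was higher in replicate 1 and the protease sum in replicate 2. The 7 neutrophil genes did not all go one way. Their sum was 7.70 and 6.67 CPM in neonates against 1.40 and 3.17 CPM in adults, and Mpo alone gave 2.94 CPM of the sum in neonate replicate 1 but 0.286 CPM in neonate replicate 2. S100a9 had 1.75 and 2.52 against 0.476 and 0.965 CPM. Csf3r was higher in adults, at 0.279 and 0.234 against 0.344 and 1.05 CPM, and Camp overlapped between ages. S100a8 and S100a9, the neutrophil genes tested, passed the filter through the neonatal libraries alone, so their calls support no direction. The same holds for Cd79a, the only gene tested of the 8 in the T and B cell list, whose sum was 3.37 and 5.66 CPM against 2.22 and 1.71 CPM. Mpo, Csf3r and Camp were named after their values were seen. The 5 eosinophil genes summed to between 0.208 and 0.371 CPM in every library, with Epx at no more than 0.291 CPM and Prg3 at 0 counts.

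Several macrophage markers were lower in neonates, unlike the proteases. Of 9 macrophage genes, 3 were called lower in neonates and 0 higher, and the list summed to 99.8 and 115 CPM in neonates and 205 and 199 CPM in adults. Csf1r, the receptor for their growth factor, had 14.5 and 17.5 against 42.1 and 47.0 CPM. The 9 genes did not all go one way. Aif1 was higher in neonates by less than 2-fold, at 16.2 and 17.3 against 15.7 and 13.0 CPM (log2 fold change 0.47). Cd68 overlapped between ages (log2 fold change 0.32). Aif1 and Cd68 were named after their values were seen. Of the called genes, Adgre1 fell below 2-fold without neonate replicate 1 (-0.93) and without adult replicate 1 (-0.96). The dendritic cell list summed to 12.4 and 13.5 CPM in neonates and 30.3 and 33.1 CPM in adults, and 3 of its 4 genes tested were called lower in neonates. These calls were weak. Clec10a, at 8.46 and 7.82 against 19.5 and 19.2 CPM, lay at the 2-fold limit and lost its call without neonate replicate 2 (-0.90) and with TMM factors from other genes than mitochondrial and ribosomal ones. Clec9a lost its call without any library except neonate replicate 2 and without a filter, and Xcr1 passed the filter through adults alone. Adgre1, Clec9a and Xcr1 are named here because their calls changed or were bound to the filter.

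Tissue near the CB was present unequally. Pth, the parathyroid hormone, reached 1595 CPM in the first neonatal library, 194 CPM in the second, and had 0 counts in adults. Pth and Gcm2, the genes tested of this list, passed the filter through the neonatal libraries alone, so their calls support no direction. Cma1 and Tpsab1 were nearly the same in these neonatal libraries, Cpa3 was higher in the library with less Pth, and Tpsb2 was higher in the library with more, at 9.60 against 7.25 CPM. Without neonate replicate 1 the log2 fold change of Cma1 was 2.38, that of Cpa3 2.55, that of Tpsab1 1.31 and that of Tpsb2 1.01, down from 1.25. Foxn1, a gene of the thymus, had 0 counts in all 4 libraries. The fibroblast list, led by Col1a1, summed to 5577 and 7023 CPM in neonates and 8936 and 9510 CPM in adults, with 1 of 4 genes called lower in neonates. The adipocyte list, led by Fabp4, overlapped between ages at 125 and 172 against 128 and 176 CPM, although 3 of its 4 genes tested were called lower in neonates, Cidec among them after passing the filter through adults alone. The part of these tissues in the mast cell values was not tested.

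**Figure D4:**
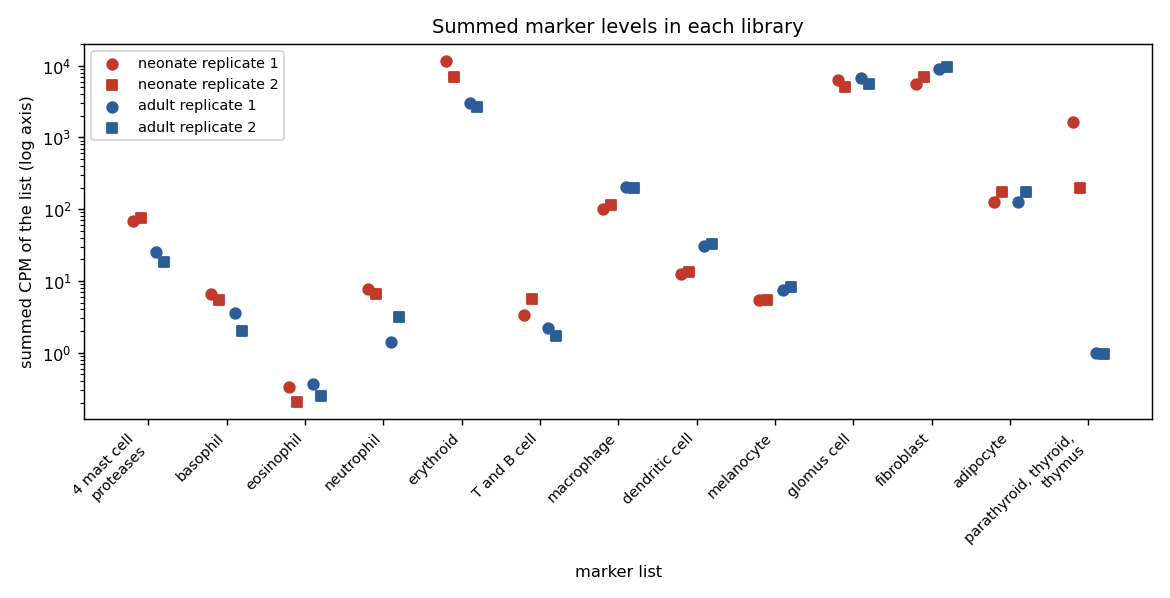
Summed CPM (log axis) of the 4 mast cell proteases and of 12 marker lists of other cells and tissues in the 4 libraries, with red for neonates, blue for adults, circles for replicate 1 and squares for replicate 2. The erythroid, neutrophil and basophil sums are higher in neonates like the proteases, and the macrophage and dendritic cell sums are higher in adults. The neutrophil sum rests in part on S100a8 and S100a9, which passed the filter through neonates alone, and Csf3r was higher in adults.

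Finally, the genes outside all lists whose centred log2 CPM over the 4 libraries lay nearest to the mean profile of the 7 mast cell genes were AABR07031089.1, Zfp428, Tubb5, LOC100912578 and Tgif1. Their Euclidean distances ran from 0.0485 to 0.0744, and their log2 fold changes from 1.15 to 1.27. Tubb5, a tubulin of dividing cells and neurons, was far more abundant, with 1256 and 1287 CPM in neonates and 701 and 606 CPM in adults. With 4 libraries in 2 ages, likeness says little beyond a similar difference between ages.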

How the data were processed

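RNA of pooled CBs was measured in 4 libraries, 2 per age, and samples were grouped by the age in their titles. The authors trimmed the reads, aligned with STAR and quantified with Salmon (1.5.2 in the submitters' processing notes) on Rnor_6.0.102, and deposited estimated counts per gene, with no normalization or filter. Of the genes in a library, 5.02% to 6.19% had a fractional estimated count.

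Counts were rounded. CPM in the text are counts per 1000000 of the library total, before TMM. Genes annotated as other than protein-coding in RefSeq's GRCr8 gene table (636, matched by symbol or synonym) were removed, and genes were kept that reached 1 CPM in 2 or more libraries. Ages were compared in R 4.3.3 with edgeR 4.0.16 (quasi-likelihood test, TMM, no covariates), and p-values were adjusted by Benjamini-Hochberg across the 13843 genes kept. TMM factors were 0.902 and 0.935 for neonates and 1.08 and 1.10 for adults. With library size alone all genes had a median of -0.25 on the log2 scale. The precision at this depth is given with the totals. Libraries of an age differed by 32.6 (neonates) and 15.4 (adults) in chi-square per degree of freedom, above sampling noise, and each was 1 replicate. The titles call the libraries biological replicates without naming litters, so p-values measure the spread between these pools. The deviations of same-numbered libraries had a correlation of -0.015 across genes, so no pairing by replicate number was seen. With 2 libraries per age, this cannot exclude a pairing. By the methods of the paper, part of the litter was kept to day 21, so the ages may share litters.

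The members and lists were chosen with earlier results of these data known. Text names all members, of each list by role the 4 most abundant genes tested and every gene called, of each list of other cells the most abundant gene and genes at 0, and the 5 genes of most alike profile. Any other choice is stated in place. Some genes of these lists enter the counts but are not reported here by name. Alternatives were DESeq2 1.42.0, limma-voom (limma 3.58.1), other scalings and filters, noncoding genes kept, no minimum fold, a replicate block and each library left out. The procedure was tested on simulated data.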

Additional observations from a re-analysis of the deposited data

How the results depend on the processing

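Cma1, Cpa3 and Tpsb2 were called higher in neonates under all 14 alternatives, with log2 fold changes of 2.13 to 2.45, 2.04 to 2.64 and 1.0 to 1.48. Hdc was called by DESeq2, limma-voom and the other TMM and RLE scalings, but lost its call with library size alone (0.77), without a filter (just below 2-fold) and when any library but neonate replicate 1 was left out, and a mean of at least 5 CPM removed it. With 1 library left out, 3 to 5 of the mast cell genes were called higher, the lone library of an age being assumed to vary like the rest, and the lowest number came without adult replicate 2, where Tpsab1 also fell below 2-fold. Replicate numbers as a replicate block left 5 called and changed none of these calls. Kit turned to -0.13 and Ms4a2 to -0.23 with library size alone, Ms4a2 to -0.02 without a filter, and Ms4a2 to -0.05 and -0.15 without neonate replicate 1 and adult replicate 2, within a range of -0.15 to 0.13 over the libraries left out. None of these values was called.

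For the lists by role, without a minimum fold 14 genes were called higher and 19 lower, and with a mean of at least 5 CPM 4 were called lower. With 1 library left out, 5 to 9 were called lower, the fewest without adult replicate 2. Of the 43 markers of other cells tested, 12 were called higher and 12 lower. Among those called, 7 had passed the filter through 1 age alone. A mean of at least 5 CPM left 7 higher, no minimum fold gave 20 lower, and leaving out 1 library gave 6 to 11 higher, the fewest without neonate replicate 1. Of the 38 list genes called, 16 kept their call under every alternative, counting as lost the genes that a filter removed, and 0 turned sign. The causes were not tested. Ms4a2, Hdc and Fcer1a rest on few counts, which limits what can be said of them.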
